A study of Mus musculus with 2 samples.

Results

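The SLC25 genes encode the mitochondrial carrier family, and this account covers all 47 of its genes whose symbol in the deposited tables is Slc25a followed by a number. The tables list 23444 gene symbols in all, and the 47 carriers occupy 63 of the 31580 transcript rows. The members were chosen by symbol, not by their values. The data are RNA-seq of macrophages that were grown in culture from bone marrow of FVB mice. One library was labelled RON TK-/-, from mice deficient in the tyrosine kinase of the receptor RON, and the other was labelled WT, from RON-proficient mice. By their labels, the cells of both had been given recombinant interleukin-4, a cytokine that drives alternative macrophage activation, at 10 ng/mL for 72 h. The number of mice or cultures behind a library is not stated in the labels. The comparison asks how the carriers differ between these macrophages with and without the RON kinase.

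Carriers of this family sit in the inner mitochondrial membrane, apart from a few in the outer membrane or in peroxisomes. Each binds its substrate from one side and releases it on the other, usually in exchange for a second substrate or together with a proton. They bring ADP, phosphate, amino acids, iron, glutathione and cofactors into the matrix, and they send out ATP, citrate, aspartate and other products. Macrophages use exported citrate to make lipids, and activated macrophages are known for changes in mitochondrial metabolism.

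Each group has a single library, so no difference has a replicate check and no test or p-value could be given. Each value compares these 2 libraries and not the conditions. Levels are FPKM, fragments scaled by transcript length and by library size, which can be compared between genes. The reads estimated from the deposited coverage summed to 61915200 for the library labelled RON TK-/- and 54165500 for the library labelled WT. Mst1r, which encodes RON, was listed at 0 FPKM in both libraries and so checked neither label. Arg1, a marker gene of the response to interleukin-4, had 5041 FPKM in the library labelled RON TK-/-, against 1.0045 FPKM in the library labelled WT, and the inflammatory gene Nos2 had 3.63 FPKM for RON TK-/- and 1100 FPKM for WT. Irg1 had 1.10 FPKM for RON TK-/- and 2746 FPKM for WT, and Mrc1 had 1016 FPKM for RON TK-/- and 71.2 FPKM for WT. Arg1 in the library labelled WT thus ran against the labelled treatment, and every direction given here depends on which label is on which library. Both labels state interleukin-4, so an exchange of labels would not remove this conflict. Genotype and any other difference in activation between the 2 libraries cannot be told apart. All 8 macrophage markers examined were detected in both libraries, summing to 6406 FPKM in the library labelled RON TK-/-, against 4823 FPKM in the library labelled WT; Itgam was higher and Mertk, Fcgr1 and Spi1 were lower by at least 2-fold. The T cell, erythroid, eosinophil and mast cell markers were all listed at 0, and the summed B cell, neutrophil and dendritic cell markers stayed under 2 FPKM in each library. The 3 fibroblast markers Col1a1, Col1a2 and Pdgfra were present, summing to 707 FPKM in the library labelled RON TK-/-, against 611 FPKM in the library labelled WT. Pdgfra alone among them was 2-fold apart, with 24.3 FPKM for RON TK-/- and 8.93 FPKM for WT, and the part of these markers in the results was not tested.

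Ratios below are log2 of FPKM + 1 for RON TK-/- divided by FPKM + 1 for WT, a scale that understates differences of low genes. A gene counts as detected at 1 FPKM or more in at least 1 library, and as higher or lower at a difference of 2-fold. The median ratio of the 11288 detected genes was 0.57, so most genes lay above 0. Counts for the family, its role groups and the related lists are therefore compared with those after both libraries were rescaled until that median was 0, by a factor of 0.795 for the library labelled RON TK-/- and of 1.26 for the library labelled WT.

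Of the 47 carriers, 35 were detected. As deposited, 13 carriers were higher and 1 was lower in the library labelled RON TK-/-, while 25.6% of all detected genes were higher and 8.71% lower. That is 37.1% of the detected carriers higher and 2.86% lower. After rescaling, 5 carriers were higher and 3 lower, and the shares of all detected genes were 9.72% and 14.3%. The 5 were Slc25a13, Slc25a30, Slc25a36, Slc25a45 and Slc25a51, and the 3 were Slc25a12, Slc25a25 and Slc25a37. The median ratio of the detected carriers was 0.82 as deposited and 0.26 after rescaling. In each library fewer cells of a type and less RNA per cell cannot be told apart.

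Of the 35 detected carriers, 3 (Slc25a15, Slc25a35 and Slc25a42) passed the detection limit only in the library labelled RON TK-/-, and so could only be higher there. Among the 32 carriers at 1 FPKM or more in both libraries, 11 were higher and 1 lower as deposited. For the 9605 genes that met the same condition, the shares were 22.7% and 7.67%. After rescaling, 5 of the 32 were higher and 3 lower, and the shares of those genes were 7.35% and 13.8%. Of the 13 higher carriers, 4 lay just past the limit, with ratios of 1.05 for Slc25a42, 1.05 for Slc25a33, 1.06 for Slc25a46 and 1.07 for Slc25a16. Slc25a1 lay just short of it, at 0.95.

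**Figure D1:**
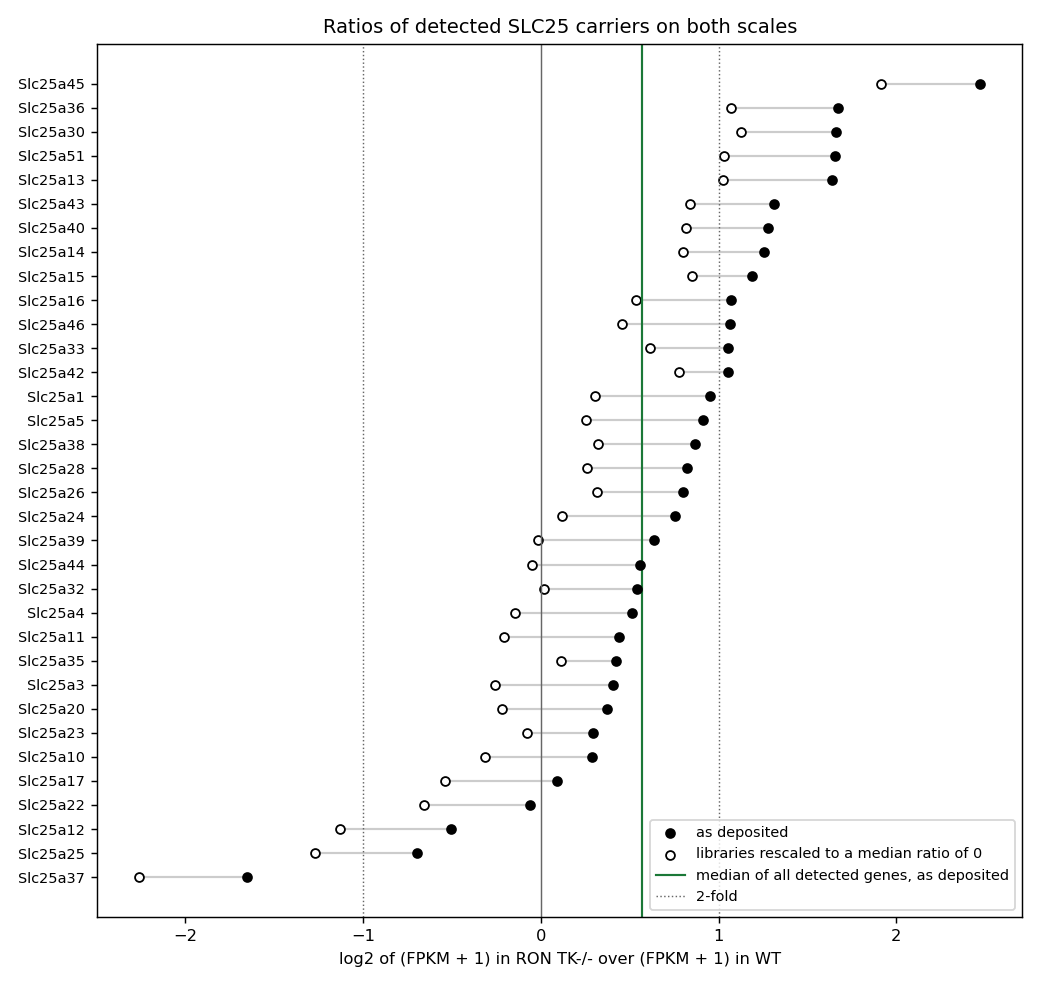
Ratios of 34 of the 35 detected carriers, from highest to lowest, as log2 of FPKM + 1 for RON TK-/- divided by FPKM + 1 for WT. Filled points are the values as deposited and open points the values after rescaling; dotted lines mark 2-fold, and Slc25a45 (2.47) and Slc25a37 (-1.65) are the ends of the range.

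The summed level of all 47 carriers was 1368 FPKM in the library labelled RON TK-/-, against 856 FPKM in the library labelled WT, a ratio of 1.60. After rescaling the log2 ratio of these sums was 0.015, so the family's total differed by about the same factor as the median gene. Slc25a5, Slc25a3 and Slc25a4, in that order, were the most abundant carriers in both libraries. Together they made up 63.5% of the family's FPKM in the library labelled RON TK-/-, against 64.2% in the library labelled WT. The larger differences lay among carriers of low or middle level, as the plot of levels by role shows.

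**Figure D2:**
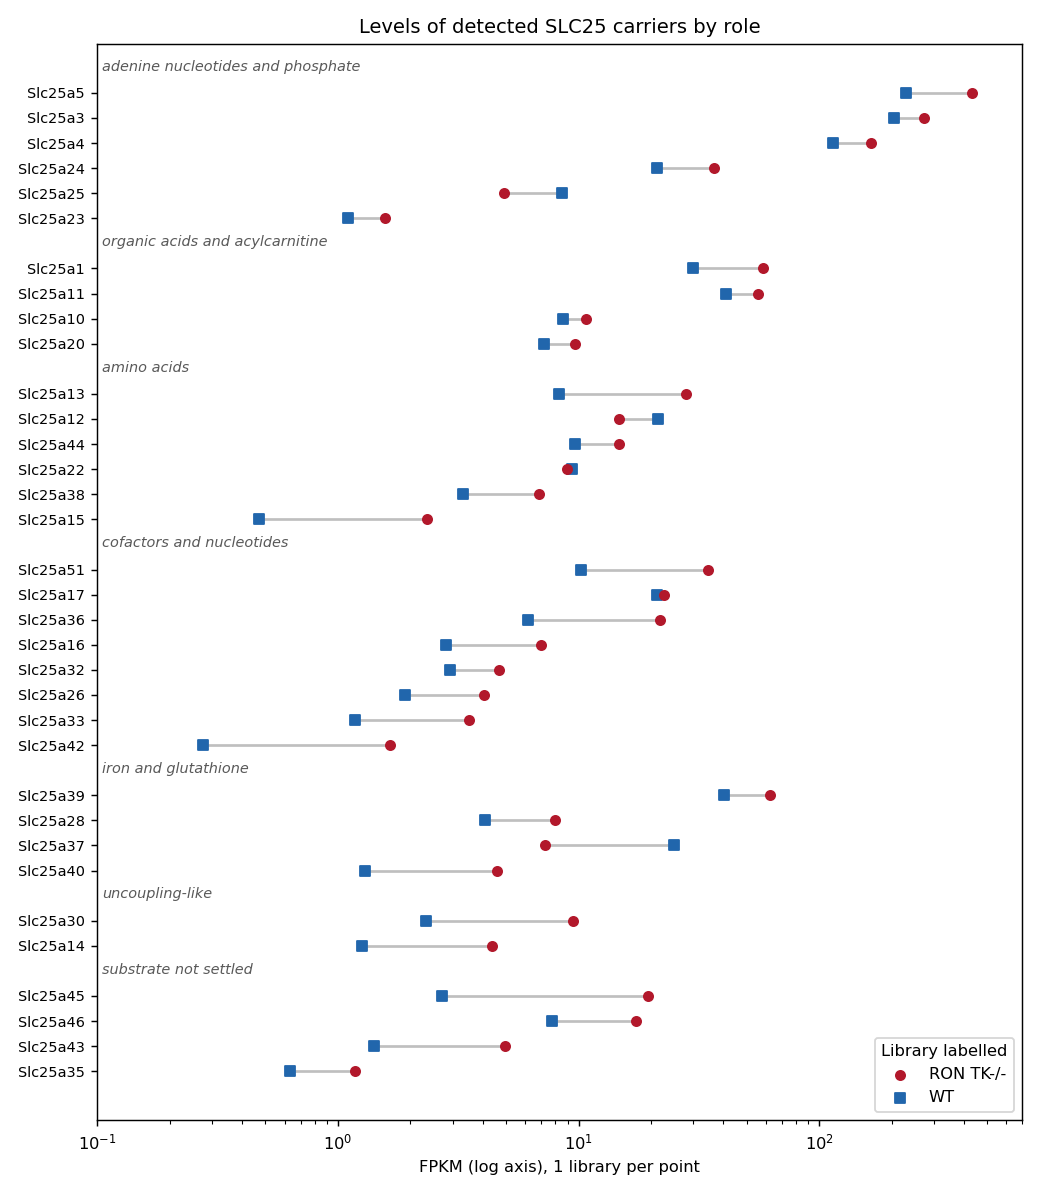
FPKM of 34 of the 35 detected carriers on a log axis, grouped by the role of the carrier, with circles for the library labelled RON TK-/- and squares for the library labelled WT, 1 library each. Slc25a5, Slc25a3 and Slc25a4 are above 100 FPKM in both libraries, and Slc25a25, Slc25a12, Slc25a22 and Slc25a37 have the square to the right of the circle.

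The carriers of adenine nucleotides and phosphate supply the ATP synthase and export its product, and none of the 6 detected members was 2-fold apart as deposited, while 1 (Slc25a25) was lower after rescaling. Slc25a5, the ADP/ATP exchanger ANT2 of most tissues, had 433 FPKM in the library labelled RON TK-/-, against 230 FPKM in the library labelled WT, a log2 ratio of 0.91. Slc25a4, the exchanger ANT1 best known from heart and muscle, had 164 FPKM for RON TK-/- and 115 FPKM for WT. Slc25a3, which imports phosphate for ATP synthesis, had 272 FPKM in the library labelled RON TK-/-, against 205 FPKM in the library labelled WT. The ratios of Slc25a4 (0.51) and Slc25a3 (0.40) were below the median of all genes, and after rescaling they were -0.15 and -0.26. Slc25a5 stood at 2.64 times Slc25a4 in the library labelled RON TK-/- (95% interval of counting error 2.59 to 2.70) and at 2.004 times in the library labelled WT (1.95 to 2.06). ADP/ATP exchangers are similar in sequence to each other, so reads could have been split between them and their values are uncertain.

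The ATP-Mg/phosphate carriers, which are regulated by calcium and set the pool of adenine nucleotides in the matrix, lay on both sides. Slc25a24 had 36.4 FPKM in the library labelled RON TK-/-, against 21.2 FPKM in the library labelled WT, and Slc25a23 had 1.57 FPKM for RON TK-/- and 1.10 FPKM for WT. Slc25a25 ran the other way, with 4.89 FPKM in the library labelled RON TK-/-, against 8.56 FPKM in the library labelled WT. Its log2 ratio was -0.70 as deposited and -1.27 after rescaling. Slc25a24 was the more abundant of this pair in both, at 7.45 times Slc25a25 in the library labelled RON TK-/- (interval 7.00 to 7.94) and at 2.47 times in the library labelled WT (2.34 to 2.62). The locus of Slc25a25, on chromosome 2 from 32414487 to 32451470 of mm10, overlaps Naif1 over 1014 bases. Naif1 had 1.28 FPKM in the library labelled RON TK-/-, against 1.09 FPKM in the library labelled WT. Slc25a31, the exchanger of germ cells, was near 0, with 0.087 FPKM for RON TK-/- and 0.14 FPKM for WT.

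The 4 detected carriers of organic acids and acylcarnitine were within 2-fold on both scales. Slc25a1, which exports the citrate used for fatty acid and sterol synthesis, came closest to the limit, with 58.7 FPKM in the library labelled RON TK-/-, against 29.8 FPKM in the library labelled WT. Slc25a11, the oxoglutarate/malate carrier of the malate-aspartate shuttle, had 55.8 FPKM for RON TK-/- and 40.9 FPKM for WT. Slc25a10, which exchanges dicarboxylates such as malate and succinate for phosphate, had 10.8 FPKM in the library labelled RON TK-/-, against 8.65 FPKM in the library labelled WT. Slc25a20, which takes acylcarnitines into mitochondria for fatty acid oxidation, had 9.63 FPKM for RON TK-/- and 7.21 FPKM for WT. Of these 4 detected members, Slc25a1 alone had a ratio above the median of all genes. Slc25a21, which carries oxodicarboxylates, was listed at 0 in the library labelled RON TK-/- and had 0.033 FPKM, about 5 reads, in the library labelled WT.

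Among the 6 detected amino acid carriers, 2 (Slc25a13 and Slc25a15) were higher as deposited and none lower, and after rescaling 1 (Slc25a13) was higher and 1 (Slc25a12) lower. Slc25a15 was detected only in the library labelled RON TK-/- and so could only be higher. The shares of all detected genes that were higher are 25.6% as deposited and 9.72% after rescaling. Slc25a13 and Slc25a12 encode citrin and aralar, the calcium-regulated aspartate/glutamate carriers of the malate-aspartate shuttle, and they differed in opposite directions. Slc25a13, on chromosome 6 from 6041218 to 6217173, had 28.1 FPKM in the library labelled RON TK-/-, against 8.34 FPKM in the library labelled WT, a ratio of 3.37 (95% interval 3.20 to 3.58, counting error only). Slc25a12, on chromosome 2 from 71274295 to 71367554, had 14.8 FPKM in the library labelled RON TK-/-, against 21.5 FPKM in the library labelled WT, a ratio of 0.690 (0.671 to 0.740). The log2 ratio of Slc25a12 was -0.51 as deposited and -1.13 after rescaling. Citrin was thus the more abundant of this pair in the library labelled RON TK-/-, at 1.90 times aralar (interval 1.82 to 1.98). In the library labelled WT it stood at 0.388 times aralar (0.366 to 0.412). The pair summed to 42.9 FPKM for RON TK-/- and 29.8 FPKM for WT.

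The mitochondrial carrier of ornithine and citrulline, Slc25a15, had 2.34 FPKM in the library labelled RON TK-/-, against 0.47 FPKM in the library labelled WT, from about 538 reads for RON TK-/- and 90 for WT. Its log2 ratio was 1.19 as deposited and 0.85 after rescaling. Slc25a38, the glycine carrier that serves haem synthesis, had 6.86 FPKM in the library labelled RON TK-/-, against 3.31 FPKM in the library labelled WT, giving a log2 ratio of 0.87. The branched-chain amino acid carrier Slc25a44 had 14.7 FPKM for RON TK-/- and 9.65 FPKM for WT. The glutamate carrier Slc25a22 had 8.98 FPKM in the library labelled RON TK-/-, against 9.42 FPKM in the library labelled WT, and after rescaling its log2 ratio was -0.66. The glutamate carrier Slc25a18 had 0.058 FPKM in the library labelled RON TK-/-, against 0.13 FPKM in the library labelled WT, and the basic amino acid carrier Slc25a29 had 0.12 FPKM for RON TK-/- and 0.045 FPKM for WT.

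Carriers of cofactors and nucleotides had 5 of 9 members higher as deposited and 2 after rescaling, and none lower. Of all detected genes, 25.6% were higher as deposited and 9.72% after rescaling. Among the 5, Slc25a42 was detected only in the library labelled RON TK-/- and so could only be higher. Slc25a33 and Slc25a16 lay just past 2-fold. Slc25a51, identified in human cells as the NAD carrier of mitochondria, had 34.5 FPKM in the library labelled RON TK-/-, against 10.3 FPKM in the library labelled WT, a ratio of 3.36 (interval 3.19 to 3.47). It lies on chromosome 4 from 45395924 to 45408766. Slc25a36, a pyrimidine nucleotide carrier on chromosome 9 from 97077011 to 97111041, had 21.8 FPKM in the library labelled RON TK-/-, against 6.15 FPKM in the library labelled WT, a ratio of 3.54 (3.25 to 3.71). Its relative Slc25a33 had 3.52 FPKM for RON TK-/- and 1.18 FPKM for WT. Slc25a36 stood at 6.18 times Slc25a33 in the library labelled RON TK-/- (interval 5.59 to 6.86) and at 5.23 times in the library labelled WT (4.37 to 6.29), so these intervals overlapped.

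Slc25a16 and Slc25a42, linked to coenzyme A transport, were both higher as deposited and neither was after rescaling. Slc25a16 had 6.99 FPKM in the library labelled RON TK-/-, against 2.80 FPKM in the library labelled WT. Slc25a42 had 1.65 FPKM for RON TK-/- and 0.28 FPKM for WT, that for WT from about 46 reads. Slc25a16 was the more abundant, at 4.25 times Slc25a42 in the library labelled RON TK-/- (interval 3.77 to 4.80) and at 10.2 times in the library labelled WT (7.48 to 13.99). The S-adenosylmethionine carrier Slc25a26 had 4.04 FPKM for RON TK-/- and 1.89 FPKM for WT, and Slc25a32, linked to folate and FAD transport, had 4.68 FPKM for RON TK-/- and 2.91 FPKM for WT. The locus of Slc25a26 overlaps Lrig1 over 124 bases, and Lrig1 had 0.590 FPKM for RON TK-/- and 3.23 FPKM for WT. Slc25a17, the peroxisomal member of this group, had 22.6 FPKM in the library labelled RON TK-/-, against 21.1 FPKM in the library labelled WT, the lowest ratio of the 9 (0.09, or -0.54 after rescaling).

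Of the 4 carriers of iron and glutathione, 1 was higher and 1 lower as deposited, and after rescaling none was higher and 1 lower. All detected genes had 25.6% higher and 8.71% lower as deposited, and 9.72% and 14.3% after rescaling. The iron importers differed in opposite directions as deposited, and Slc25a28 was within 2-fold. Slc25a37 encodes mitoferrin-1, best known for its high level in developing red cells, and it was the carrier with the lowest ratio. It had 7.26 FPKM in the library labelled RON TK-/-, against 24.98 FPKM in the library labelled WT, from about 2008 reads for RON TK-/- and 6190 for WT, a ratio of 0.291 (interval 0.275 to 0.304). Slc25a37 lies on chromosome 14 from 69241851 to 69285103, and its log2 ratio was -1.65 as deposited and -2.26 after rescaling. The erythroid markers Alas2, Slc4a1 and Klf1 were all listed at 0 in both libraries. Slc25a28, which encodes mitoferrin-2 of most tissues, had 7.97 FPKM in the library labelled RON TK-/-, against 4.07 FPKM in the library labelled WT. Mitoferrin-2 transcripts stood at 1.10 times those of mitoferrin-1 in the library labelled RON TK-/- (interval 1.01 to 1.19) and at 0.163 times in the library labelled WT (0.146 to 0.181).

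The glutathione importer Slc25a39 had 62.8 FPKM in the library labelled RON TK-/-, against 40.1 FPKM in the library labelled WT, and after rescaling its log2 ratio was -0.01. Its paralog Slc25a40 was higher as deposited, with 4.59 FPKM for RON TK-/- and 1.30 FPKM for WT and a log2 ratio of 1.28, but not after rescaling (0.82). Slc25a40 stayed the minor of the pair, at 0.0731 times Slc25a39 in the library labelled RON TK-/-, against 0.0325 times in the library labelled WT.

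**Figure D3:**
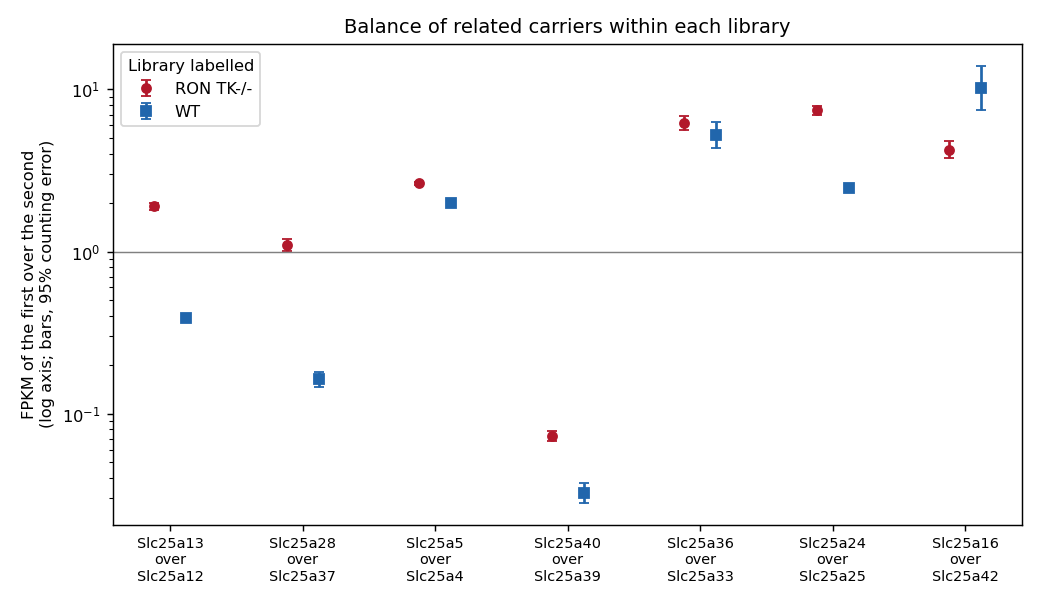
FPKM of 1 carrier over that of a related carrier within each library, on a log axis, with circles for the library labelled RON TK-/- and squares for the library labelled WT. Bars are 95% intervals of counting error from estimated reads; for Slc25a13 over Slc25a12 and Slc25a28 over Slc25a37 the libraries lie on opposite sides of 1, at 1.90 for RON TK-/- and 0.388 for WT, and at 1.10 for RON TK-/- and 0.163 for WT.

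Both detected carriers that resemble the uncoupling proteins were higher as deposited, and 1 of them, Slc25a30, after rescaling. The shares of all detected genes that were higher are 25.6% as deposited and 9.72% after rescaling. Slc25a30 had 9.49 FPKM in the library labelled RON TK-/-, against 2.31 FPKM in the library labelled WT, a ratio of 4.10 (interval 3.63 to 4.85), and it lies on chromosome 14 from 75761999 to 75787037. Slc25a14 had 4.39 FPKM for RON TK-/- and 1.26 FPKM for WT, with a log2 ratio of 1.26 as deposited and 0.80 after rescaling. The third, Slc25a27, was near 0 in both libraries (0.052 FPKM for RON TK-/- and 0.029 FPKM for WT). The uncoupling protein Ucp2 belongs to the same family under another symbol, and it had 150 FPKM in the library labelled RON TK-/-, against 101 FPKM in the library labelled WT, a log2 ratio of 0.56, or -0.10 after rescaling. Ucp1 and Ucp3 were listed at 0 in both.

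Among 4 detected carriers with no settled substrate, 3 (Slc25a43, Slc25a45 and Slc25a46) were higher as deposited and 1 (Slc25a45) after rescaling, with none lower. The shares of all detected genes that were higher are 25.6% and 9.72%, and Slc25a46 lay just past 2-fold. Slc25a45 had the highest ratio of the family. It had 19.5 FPKM in the library labelled RON TK-/-, against 2.70 FPKM in the library labelled WT, from about 2425 reads for RON TK-/- and 296 for WT, a ratio of 7.24 (interval 6.46 to 8.26). Its log2 ratio was 2.47 as deposited and 1.91 after rescaling, and it lies on chromosome 19 from 5878466 to 5885768. By level it ranked 12 among the carriers in the library labelled RON TK-/-, against 24 in the library labelled WT. No role is given here for Slc25a45, nor for Slc25a35 and Slc25a43. Slc25a43 had 4.96 FPKM in the library labelled RON TK-/-, against 1.41 FPKM in the library labelled WT, and Slc25a35 had 1.18 FPKM for RON TK-/- and 0.63 FPKM for WT. The locus of Slc25a35 shares 32 bases with that of Rangrf, which had 5.44 FPKM for RON TK-/- and 2.33 FPKM for WT. Slc25a46, an outer membrane protein that shapes mitochondria, had 17.3 FPKM for RON TK-/- and 7.75 FPKM for WT, and the outer membrane relatives Mtch1 and Mtch2 had log2 ratios of 0.61 and 0.60.

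The remaining 12 carriers stayed under 1 FPKM in both libraries, and 7 of these had a value above 0 in at least 1 library. They were Slc25a18, Slc25a21, Slc25a27, Slc25a29, Slc25a31, Slc25a47 and Slc25a53, and the highest value among them was 0.51 FPKM for Slc25a47 in the library labelled RON TK-/-, against 0.16 FPKM in the library labelled WT. Slc25a53 had 0.18 FPKM in both, and its locus shares 3769 bases with that of Zcchc18. The 5 carriers listed at 0 in both libraries were Slc25a2, Slc25a34, Slc25a41, Slc25a48 and Slc25a54. For Slc25a2, whose listed transcript is 1346 bases long, 3 reads would have given 0.0332 FPKM in the library labelled RON TK-/-, against 0.0373 FPKM in the library labelled WT, limits that cover counting error only.

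For 9 carriers the tables list several transcripts, and the division of reads among near-identical transcripts is an estimate. The rows of Slc25a13 are 3119 and 3122 bases long. The shorter row took 83.5% of the gene's FPKM in the library labelled RON TK-/-, against 67.4% in the library labelled WT. The rows of Slc25a22 and Slc25a44 kept their order by level in both libraries, and Slc25a25 was carried by 1 row in both.

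Promoters of the family were read from RefSeq windows of build GRCm38.p6, the assembly behind mm10, which span 250 bases before to 50 bases after a gene's start. A window was given for 36 of the 47 carriers. The median window of the carriers had 59.3% G or C and 15 CpG dinucleotides, and the median of all 32851 windows had 52.7% and 7. Searches covered 7 motifs on both strands, chosen when the ratios were known. The E-box CACGTG lay in a window of 7 of the 36 carriers (19.4%) and of 8.09% of the 27025 genes with a window. Its letters hold a CpG, and these shares were not matched for the CpG content of the windows. Among detected carriers with a window the E-box was found in 5 of the 11 that were higher as deposited and in 1 of the other 16. The 5 were Slc25a13, Slc25a14, Slc25a15, Slc25a33 and Slc25a36, the other was Slc25a1, and the undetected Slc25a31 held one too. After rescaling the split was 2 of the 4 higher carriers with a window (Slc25a13 and Slc25a36) and 4 of the other 23. This motif was 1 of the 7 searched, and no split of a motif was tested. The stretches of all detected carriers that held it are shown, so that the bases beside the motif can be compared. Each runs 5′ to 3′ along the gene's strand, with the E-box in capitals and up to 20 bases on each side.
Slc25a13, chr6:6217273-6217318, minus strand: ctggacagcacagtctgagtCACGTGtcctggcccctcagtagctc
Slc25a14, chrX:48623374-48623419, plus strand: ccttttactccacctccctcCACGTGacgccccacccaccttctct
Slc25a15, chr8:22398329-22398374, minus strand: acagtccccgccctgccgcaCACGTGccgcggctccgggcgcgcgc
Slc25a33, chr4:149774250-149774295, minus strand: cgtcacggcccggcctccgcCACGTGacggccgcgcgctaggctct
Slc25a36, chr9:97111203-97111248, minus strand: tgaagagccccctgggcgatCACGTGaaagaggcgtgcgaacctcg
Slc25a1, chr16:17928433-17928469, minus strand: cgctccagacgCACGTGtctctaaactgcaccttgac

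The E-box began 8 bases before the start of Slc25a33, 77 before that of Slc25a15, 125 before that of Slc25a13, 187 before that of Slc25a36 and 239 before that of Slc25a1. The RefSeq start of Slc25a15 lies 344 bases inside its deposited locus, so its stretch falls within that locus and not before it. The RefSeq starts of Slc25a1, Slc25a13, Slc25a33 and Slc25a36 coincide with the end of their deposited loci. For Slc25a14 the stretch lies in the windows of both of its listed starts, 54 and 184 bases before them. Those starts lie 132 and 2 bases from the deposited locus, in that order. These matches are letters in a window, and nothing about binding was measured.

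The window of Slc25a36 was the only one among those of the carriers higher as deposited that also held the cyclic AMP response element TGACGTCA, which was in a window of 2.03% of all genes and, among the other carriers, in that of Slc25a25. It is shown whole because it carries the E-box, that element and the CCAAT box together, in this order and in capitals, with no overlap.
Slc25a36, chr9:97110992-97111291, minus strand: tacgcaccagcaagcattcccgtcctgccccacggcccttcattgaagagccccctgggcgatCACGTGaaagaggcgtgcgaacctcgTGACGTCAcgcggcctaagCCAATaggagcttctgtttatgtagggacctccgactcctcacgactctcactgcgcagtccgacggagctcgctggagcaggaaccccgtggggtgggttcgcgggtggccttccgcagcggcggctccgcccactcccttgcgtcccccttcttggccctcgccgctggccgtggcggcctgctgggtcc

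The CCAAT box lay in a window of 19 of the 36 carriers and of 41.1% of all genes. Among detected carriers with a window it was in 5 of the 11 higher as deposited and in 9 of the other 16. After rescaling it was in 3 of the 4 higher and in 11 of the other 23. STAT6 can bind the palindrome of TTC and GAA separated by 4 bases. That palindrome was in windows of 2 carriers (Slc25a21 and Slc25a25), none of them among the 11, and of 8.01% of all genes. The composite element TGATGNAAT of ATF4 and the oestrogen-related receptor element TCAAGGTCA were in no window of a carrier, and in those of 1.08% and 0.466% of all genes. The core GCGCATGC of NRF1 was in windows of Slc25a31 and Slc25a54 and of 3.05% of all genes.

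Lists of genes that work with the carriers give a setting for these values. The respiratory chain sample of 15 genes had a median log2 ratio of 0.66 and a range of 0.08 to 0.84, so none was 2-fold apart as deposited, and the same held after rescaling (median 0.02). Its highest ratios belonged to Sdha (88.2 FPKM in the library labelled RON TK-/-, against 48.6 FPKM in the library labelled WT), Uqcrc1, Ndufs1 and Atp5c1. The 35 detected carriers, more in number and many at lower levels, ran from -1.65 to 2.47. Their quartiles were 0.41 and 1.13, and those of all detected genes were 0.05 and 1.01. A list of mitochondrial protein import genes had 5 of 20 genes higher and none lower as deposited, with a median of 0.62. After rescaling 0 were higher and 0 lower. Of all detected genes, 25.6% were higher as deposited and 9.72% after rescaling, and the import list did not exceed these shares. The list includes Timm23, Timm17a, Timm17b, Timm44 and Timm50, which serve the import of other proteins and were all within 2-fold. Timm9, a chaperone of carriers on their way across the intermembrane space, had 9.67 FPKM in the library labelled RON TK-/-, against 2.82 FPKM in the library labelled WT, and Timm8a1, Tomm5, Timm29 (listed as 1810026J23Rik) and Timm10b had log2 ratios of 1.51, 1.26, 1.17 and 1.09.

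Other transporters of mitochondrial membranes had 5 of 22 detected genes higher and none lower as deposited, and 1 higher after rescaling. These counts of higher genes were below the shares of all detected genes, 25.6% as deposited and 9.72% after rescaling. The gene higher after rescaling was Abcb8, with 13.1 FPKM in the library labelled RON TK-/-, against 3.31 FPKM in the library labelled WT. Abcb10, which takes part in haem synthesis, had 6.01 FPKM for RON TK-/- and 1.60 FPKM for WT. Sfxn1, a serine transporter, and its relatives Sfxn3 and Sfxn5 had log2 ratios of 1.18, 1.38 and 1.04. Mitochondrial biogenesis regulators had 0 of 6 higher and 0 lower as deposited, with a median of 0.19. Their largest difference was that of the coactivator Ppargc1b, with 1.19 FPKM in the library labelled RON TK-/-, against 3.37 FPKM in the library labelled WT, a log2 ratio of -0.9997 that fell just short of 2-fold and was -1.43 after rescaling. Tfam, Nrf1 and Gabpa had ratios of 0.79, 0.45 and 0.42.

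**Figure D4:**
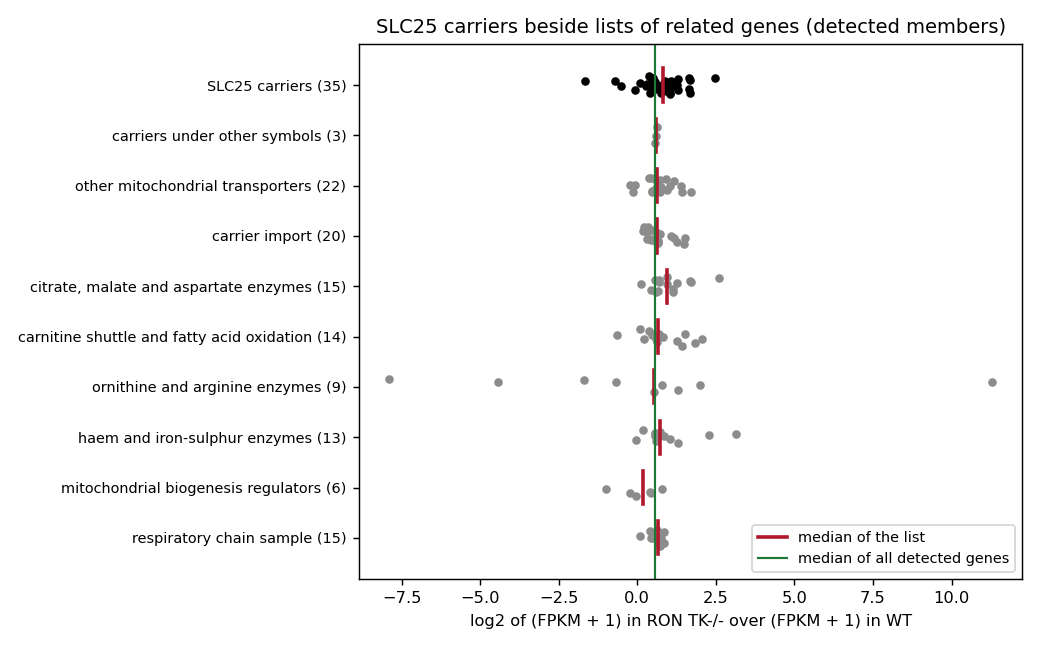
Ratio of each detected gene of the SLC25 family and of 9 lists of related genes, as log2 of FPKM + 1 for RON TK-/- divided by FPKM + 1 for WT, as deposited, with the number detected in brackets. Thick bars are list medians and the thin line is the median of all detected genes (0.57); the carriers run from -1.65 to 2.47 and the respiratory chain sample from 0.08 to 0.84.

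Enzymes that make or use the substrates of citrate and malate-aspartate transport had 6 of 15 detected genes higher and none lower as deposited, and 3 higher after rescaling. The 3 were Idh1, Acss2 and Aco1. For this list and the next, the shares of all detected genes that were higher are 25.6% as deposited and 9.72% after rescaling. Idh1, the cytosolic isocitrate dehydrogenase, had 132 FPKM in the library labelled RON TK-/-, against 21.2 FPKM in the library labelled WT, while Aco1, which is also an iron sensor, had 27.0 FPKM for RON TK-/- and 7.66 FPKM for WT. The cytosolic aspartate aminotransferase Got1 had a log2 ratio of 1.26, ATP-citrate lyase (Acly), which uses the citrate that Slc25a1 exports, one of 1.15, and Idh2 one of 1.14. In the carnitine shuttle and fatty acid oxidation list, 5 of 14 were higher and none lower as deposited, and 2 (Crot and Acadm) were higher and 1 (the carnitine importer Slc22a5) lower after rescaling. Crot, the peroxisomal carnitine acyltransferase, had 20.2 FPKM in the library labelled RON TK-/-, against 4.11 FPKM in the library labelled WT, and Acadm, Cpt2, Etfdh and Crat had ratios of 1.85, 1.51, 1.43 and 1.27. Slc25a20, the carrier between the carnitine acyltransferases, had a ratio of 0.37.

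Enzymes of ornithine and arginine metabolism went both ways, with 3 of 9 detected genes higher and 3 lower as deposited. Among all detected genes, 25.6% were higher and 8.71% lower as deposited, and 9.72% and 14.3% after rescaling. Beside Arg1 and Nos2, the mitochondrial arginase Arg2 had 0.50 FPKM in the library labelled RON TK-/-, against 31.1 FPKM in the library labelled WT, and Aldh18a1, which makes the precursor of proline and ornithine, had 25.1 FPKM for RON TK-/- and 5.51 FPKM for WT. The others 2-fold apart were Oat, ornithine aminotransferase, with a log2 ratio of 1.31, and Odc1, ornithine decarboxylase, with -1.71. After rescaling 2 were higher (Arg1 and Aldh18a1) and 4 lower (Nos2, Arg2, Odc1 and Ass1). Haem and iron-sulphur enzymes, taken with the transferrin receptor, had 4 of 13 genes higher and none lower as deposited, and 2 higher after rescaling. Those 2 were Tfrc, the transferrin receptor, with 201 FPKM in the library labelled RON TK-/-, against 21.7 FPKM in the library labelled WT, and Cpox, with 13.0 FPKM for RON TK-/- and 1.92 FPKM for WT. Uros had a log2 ratio of 1.31.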

How the data were processed

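RNA-seq of 2 libraries was used, 1 per group, as single reads of 50 bases, per the labels' protocols. For each library the authors deposited a table of RefSeq transcripts with their FPKM and mean coverage (read depth per base), whose columns are those of Cufflinks, per the file headers. Build mm10 and DESeq are named by the submitters' processing notes. No aligner, annotation release or strand setting is named, and reads of overlapping genes may therefore be counted for either.

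Rows of a symbol were summed. Reads were estimated as coverage times length over read length, which gave at least 46 reads in each library for every detected carrier. Ratios used a pseudocount of 1. Exact binomial intervals (Clopper-Pearson, 95%) on rounded estimated reads cover counting error only, not differences between animals or cultures. Locus starts are printed counted from 1. Counting of 2-fold differences was tested on simulated data, with differences planted only in genes above the WT level of every carrier called higher as deposited. Recovery of differences at low levels was therefore not checked. Every carrier with a value was to be named (1 is counted but not reported here by name), and up to 4 genes of each related list with the largest absolute ratio, besides genes that complete a count or were named for the labels. Genes, lists, roles and motifs were chosen with earlier results of these data known. A planned search for the carrier signature in the proteins was not run, since the protein sequences it needs were not used here. Python 3.11.15, pandas 2.3.3, numpy 2.4.6 and scipy 1.17.1 were used. Alternatives changed the pseudocount, the minimum level, the scaling, the use of rows and the fold.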

Additional observations from a re-analysis of the deposited data

How the results depend on the processing

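Counts of carriers moved with the setting, as did the shares of all genes. With a pseudocount of 5, 4 of the 35 carriers passed 2-fold towards RON TK-/- (8.71% of all genes did). With a 5 FPKM minimum 7 of the 25 carriers that met it did, a share near the 25.1% of all genes that met it. After rescaling to a median ratio of 0, 5 of the 35 were higher and 3 lower (9.72% and 14.3% of all genes). At 1.5-fold 21 were higher and 2 lower (48.9% and 12.5% of all genes), and at 4-fold 1 was higher and 0 lower (3.71% and 4.10%). Under the other alternatives (a pseudocount of 0.1, no filter, TPM, estimated reads, the most abundant row) 12 to 16 were higher and 1 lower. These were counted among 35 carriers, or all 47 without a filter. Of all genes, 12.3% to 34.8% were higher. The family median was 0.95 and 0.50 with pseudocounts of 0.1 and 5, 0.51 without a filter, 0.75 with the 5 FPKM minimum, 0.26 after median rescaling, 0.85 as TPM and 0.84 from estimated reads. The log2 ratio of summed FPKM was 0.015, 0.61 and 0.66 under the last 3. Slc25a13, Slc25a36, Slc25a45 and Slc25a51 were 2-fold or more higher and Slc25a37 at least 2-fold lower under all 8 alternatives of pseudocount, filter, scaling and rows, and Slc25a30 under 7. A change of filter leaves the ratio of a carrier as it was, so the filter alternatives among the 8 could not have differed. Members near 1 FPKM depend most on the pseudocount, as the added 1 is as large as their level. No paired analysis was possible because each group has 1 library.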
